A study of Mus musculus with 16 samples.

Results

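Glycogen is the branched glucose polymer in which the liver stores carbohydrate, and 8 genes of its synthesis and breakdown are described here in liver RNA. They are Ugp2, Gys2 and Gbe1, which encode enzymes that build the polymer, Pygl and Phka2, which encode the enzyme that degrades it and a regulator of that enzyme, and Ppp1r3b, Ppp1r3c and Ppp1r3g, which encode subunits that bring protein phosphatase 1 to glycogen. The members were chosen by name, and a row of the deposited expression table was taken when its Ensembl identifier maps to 1 of these symbols in the mouse build GRCm38. All 8 were found among the 55487 genes of the table.

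Each of 16 male C57BL6/J mice gave 1 liver library, and treatment (vehicle or G108) was crossed with diet (SP or HP), with 4 mice in every combination. By the labels, every group was first fed a 60 kcal% high-fat diet for 8 weeks from 10 weeks of age, and then a high-fat diet whose protein content was standard (SP) or high (HP). G108, a long-acting analogue of glucagon, was injected under the skin at 2.5 nmol/kg once a day for 22 days, and the other mice received vehicle. The livers were taken after a fast of 4 h on day 25; the methods of the study give a different age, length of prior feeding and last day. All 4 groups were obese from diet and singly housed, and no lean group was analysed here.

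Glucagon raises cyclic AMP in hepatocytes and activates protein kinase A. The kinase activates phosphorylase kinase, which switches on glycogen phosphorylase, and it also lowers the activity of glycogen synthase, so that glucose is released from the store. Protein phosphatase 1 acts in the opposite direction once a targeting subunit has tethered it to the glycogen particle. Much of this control works through phosphorylation of proteins and through allosteric ligands, and these libraries measure mRNA.

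The clearest difference among the 8 genes was in Ppp1r3g, the least abundant of them, which rose with G108. Its level was higher in all 8 G108 mice than in all 8 vehicle mice, as for 0.396% of the 32076 genes with a value. The means were 8.67-fold apart on SP and 5.05-fold apart on HP, or 2.91-fold on HP without G108 mouse 2. The vehicle means rest on 6 to 25 reads a library. Over both diets Ppp1r3g was called, where 1.01% of these genes were called higher. That call was not made in 10 of 16 fits with a library left out. In the fit of all 16 libraries it was called on neither diet alone (limma adjusted p = 0.116 on SP and 0.510 on HP). There 0.355% and 0.0748% of these genes were called higher. Some other settings called it on SP, as given with the gene. The other 7 genes, among them glycogen synthase and glycogen phosphorylase, had differences of at most 1.69-fold between the group means of each diet or treatment, and none of them passed the main test across all genes in any of 6 comparisons, in which the libraries were put on a common scale by their median gene. The main test called from 0 to 5.81% of all genes tested, depending on the comparison. Under other settings Phka2, Gys2 or Ugp2 passed, as given with each gene or with the settings. With the values as deposited, Gys2, Ugp2 and Ppp1r3c were called higher with G108 on SP, along with most genes of the liver.

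Values are in TPM, a unit of transcript abundance that divides the reads of a gene by its exon length and sets every library to the same total. The shares of TPM from the Mup genes and the mitochondrial genome together differed between groups, from 59.0 to 66.6% with vehicle on SP and from 52.96 to 60.1% with vehicle on HP, against 35.4 to 43.8% with G108 on SP and 44.5 to 55.5% with G108 on HP. Because these genes take up a part of a fixed total, all other genes shift when their share does. Each library was therefore divided by its median-of-ratios factor, a scaling that centres the typical gene, and the result is called scaled TPM. The factors ranged from 0.683 to 1.54. Without this step the median of all 11839 genes tested moved by 0.60 on the log2 scale between vehicle and G108 on SP, by 0.09 on HP and by 0.35 over both diets. Between the diets the shift was -0.35 under G108 and 0.14 under vehicle, and for the interaction it was -0.49. Rescaling the TPM without the Mup and mitochondrial genes shifted that median by -0.11 between the diets under G108 and by -0.10 in the interaction.

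By the reads recovered from the TPM steps, the libraries held from 27.8 to 45.03 M reads (M, 1e6 reads). The 6 hepatocyte markers summed to between 24157 and 36397 scaled TPM. Markers of skeletal muscle and adipocytes reached summed levels of at most 1.49 and 1.23, and 5 of 6 and 4 of 5 of these markers stayed below 1 TPM in every library. Blood cell markers ranged from 840 to 3084 with vehicle on SP and from 654 to 916 with G108 on SP, and from 994 to 1302 and from 983 to 2380 on HP. Kupffer cell markers lay between 21.0 and 70.1, stellate cell markers between 10.5 and 15.8 and cholangiocyte markers between 0.701 and 1.81. Endothelial markers lay between 13.2 and 19.6 and exocrine pancreas markers between 5.40 and 11.2. Endothelial sums were separate on SP, from 16.6 to 19.6 with vehicle and from 13.2 to 14.97 with G108. Adipocyte sums were too, from 0.149 to 1.23 with vehicle and from 0 to 0.0472 with G108. Both overlapped on HP. Exocrine pancreas sums were separate on HP, from 8.29 to 10.5 with vehicle and from 6.18 to 8.22 with G108, and overlapped on SP. The other sums overlapped between vehicle and G108 on both diets. The part of these cell types in the results was not tested. In whole liver, fewer cells of a type and less RNA per cell cannot be told apart.

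Ordered by mean TPM over the 16 libraries, the genes were Ugp2 (85.7), Gys2 (66.1), Pygl (32.2), Ppp1r3b (20.8), Ppp1r3c (8.79), Gbe1 (8.47), Phka2 (3.75) and Ppp1r3g (0.819). Most neighbours in this order kept their places within a library. Gys2 exceeded Pygl in 16 of 16 libraries and Phka2 exceeded Ppp1r3g in 16 of 16, whereas Ppp1r3c exceeded Gbe1 in 9 of 16, so those levels did not differ beyond their spread. In TPM, synthase mRNA thus stood above phosphorylase mRNA in every mouse of every group. That order rests on the annotated exon lengths that TPM divides by, 2657 bases for Gys2 and 6895 for Pygl. In reads the group means were lower for Gys2 than for Pygl, as with vehicle on SP at 4178 against 6116. A molar order was not tested.

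**Figure D1:**
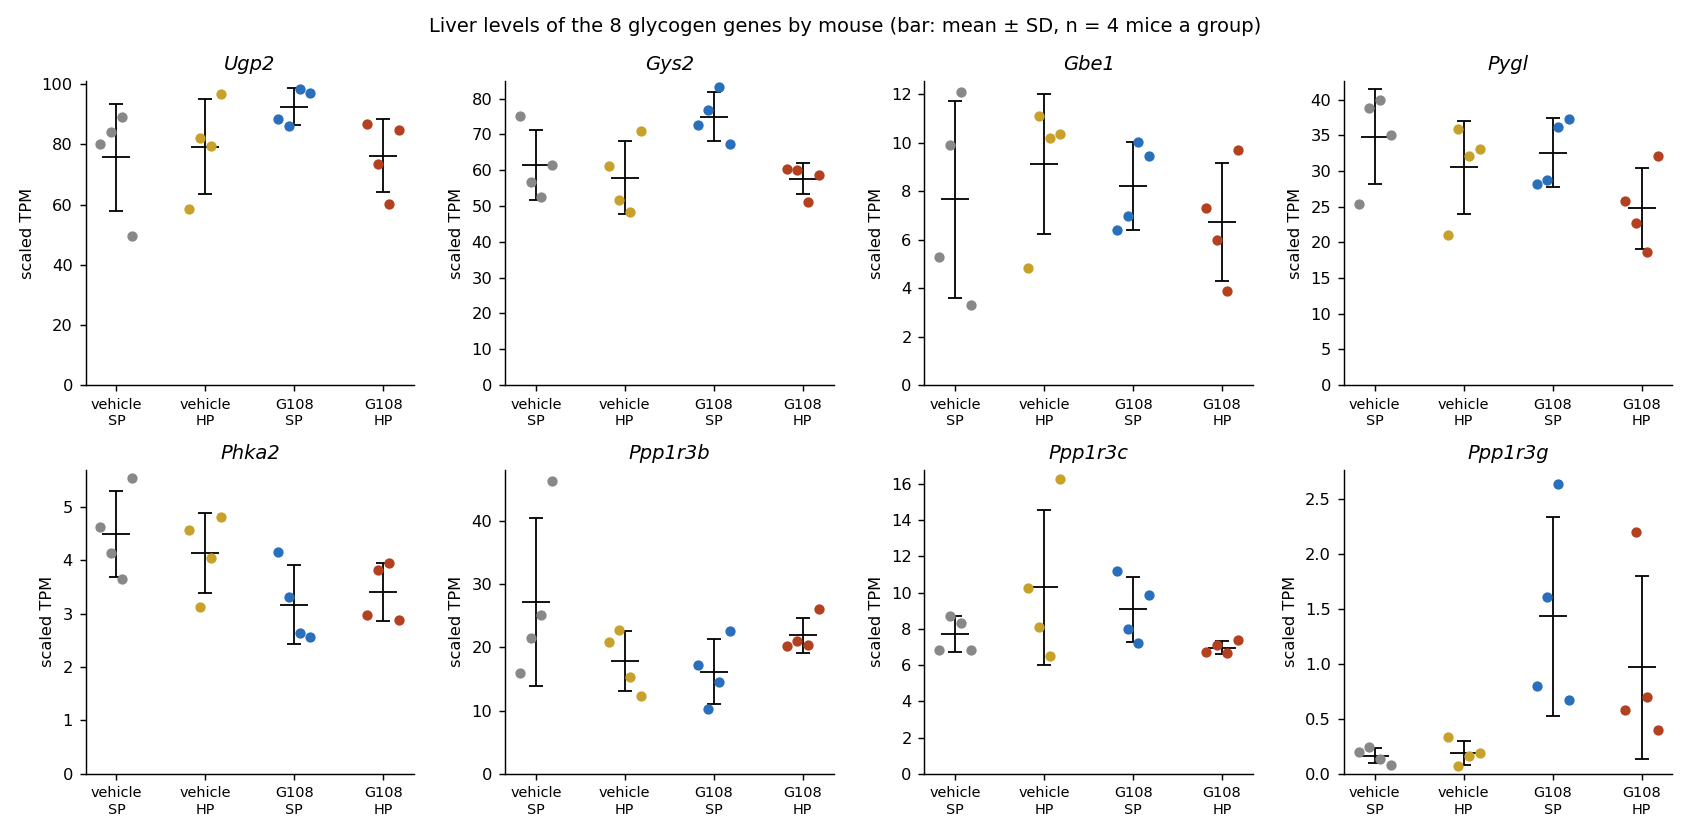
Scaled TPM of each of the 8 genes by mouse in the 4 groups; points are mice, and the horizontal mark and bars are the mean and SD of 4 mice. In the Ppp1r3g panel the 8 G108 mice lie between 0.394 and 2.63, above the 8 vehicle mice at 0.0734 to 0.335, while the groups of the other genes overlap in most comparisons.

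Ppp1r3g lies on the plus strand at chr13:35958839-35970388 and encodes a glycogen-targeting subunit of protein phosphatase 1 known from liver. The sequence before its RefSeq transcription start is shown because this was the member that moved and because the factor CREB, which responds to cyclic AMP, binds the letters TGACGTCA or the shorter TGACG within them. The start of the RefSeq transcript lies inside the gene as GENCODE draws it, and the last 53 of the 250 bases before it belong to an exon of a GENCODE transcript, so the first line gives the 197 bases before that exon (GRCm38.p6, chr13:35967656-35967852, plus strand). The second line gives the 25 bases around the match to TGACG, at chr13:35967856-35967880, inside that exon. The third gives the match of Pygl on its minus strand, at chr12:70227713-70227737. The 250 bases before the RefSeq start of Pygl also lie inside the gene as GENCODE draws it, which reaches 70231488. Of these bases, 0 belong to an annotated exon. Capitals mark TGACG or its reverse complement.

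Ppp1r3g upstream: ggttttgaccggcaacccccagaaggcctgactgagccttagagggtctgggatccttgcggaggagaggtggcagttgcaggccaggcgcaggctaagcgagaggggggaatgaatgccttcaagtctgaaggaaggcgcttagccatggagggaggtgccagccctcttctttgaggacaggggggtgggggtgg
Ppp1r3g match: gggaggacctTGACGtgctctagtg
Pygl match: cctgggggggCGTCActctgggagc

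RefSeq promoter windows were held for 6 of the 8 members, all but Gys2 and Ppp1r3b. On either strand of the 250 bases before the start, TGACG was found in 2 of these 6, 40 bases before the start of Ppp1r3g and 44 bases before that of Pygl, and in 17.8% of all 32851 windows. The full element TGACGTCA, which contains TGACG, was in none of the 6 and in 1.55% of all windows. The forkhead motif TGTTTAC was in none and in 3.17%, and the E-box CACGTG was in 1 of the 6, Ppp1r3c, and in 6.02%. These matches describe letters and not binding.

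Among mice given vehicle on SP, Ppp1r3g was at 0.202, 0.240, 0.135 and 0.0826 scaled TPM, and with G108 on SP it was at 0.799, 1.61, 2.63 and 0.674. On HP the vehicle mice were at 0.335, 0.0734, 0.165 and 0.191 and the G108 mice at 0.577, 2.20, 0.695 and 0.394. The lowest G108 mouse of each diet lay above the highest vehicle mouse of that diet. Such a separation in the upward direction was seen for 2.58% of the 32076 genes with any value on SP and for 2.50% on HP, and all 8 G108 mice lay above all 8 vehicle mice for 0.396% of them. Among the 2462 genes with a mean TPM between 0.5 and 1 the share with all 8 above all 8 was 0.284%. Ppp1r3g falls in that range only through its G108 mice, as its deposited vehicle means were 0.137 on SP and 0.169 on HP. That share is therefore not a matched background for it.

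These levels rest on few reads. The vehicle libraries held 14, 16, 9 and 6 reads of Ppp1r3g on SP and 25, 7, 11 and 12 on HP. With G108 the counts were 55, 118, 227 and 64 on SP and 45, 147, 46 and 29 on HP, so that 464 and 267 reads stood against 45 and 55. Counting error alone reached 40.8% of the value in the library with 6 reads, while the spread between mice of a group ran from 42.3 to 85.9% of the group mean.

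With a mean TPM of 0.819, Ppp1r3g lay under the minimum mean TPM of 1 set for the main test and was tested in the fit of all 32076 genes. Over both diets its log2 fold change on the log2(scaled TPM + 1) scale was 0.82 (SE 0.18, limma adjusted p = 0.0336), in a fit in which 1.01% of genes were called higher. The added 1 in that scale shrinks the change of a gene this low; on the recovered reads the change was 2.58 on the log2 scale (SE 0.49, limma-voom adjusted p = 0.00613, 1.30% of genes called higher). By diet it was 0.99 (SE 0.26, limma adjusted p = 0.116) on SP, where 0.355% of genes were called higher, and 0.65 (SE 0.26, limma adjusted p = 0.510) on HP, where 0.0748% were, so neither passed. With voom the SP value was 2.97 (SE 0.70, limma adjusted p = 0.0444, 0.577% of genes called higher) and the HP value 2.18 (SE 0.70, limma adjusted p = 0.283, 0.200% called higher). On SP it was also called with a pseudocount of 0.1 (2.38, limma adjusted p = 0.0396) and as deposited (1.30, limma adjusted p = 0.00459). The shares called in the fit of all 32076 genes under those 2 settings are not given here. Of the genes past the filter, a set without Ppp1r3g, 2.62% and 77.6% were called on SP in either direction. Those shares come from another fit and are not its background. Apart from libraries left out, the limma adjusted p on SP ran from 0.00459 to 0.286 over the alternatives.

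In two-sided exact permutation tests of log2 scaled TPM, the SP and the HP difference each had p = 0.0286, the smallest that 4 against 4 mice can give, or 0.0571 after Benjamini-Hochberg adjustment over the 6 comparisons of this gene. Over both diets, with treatment relabelled within diets, the exact permutation p was 4.08e-04 (adjusted 0.00245), the smallest that 4900 relabellings can give. No correction was made for the choice of the gene among the 8. The G108 groups of the 2 diets overlapped, with means of 1.43 ± 0.904 scaled TPM on SP and 0.966 ± 0.830 on HP (SD, n = 4 each, exact permutation p = 0.343). The interaction was -0.81 on the log2 scale with an exact permutation p of 0.637 (n = 4 a group), so a difference between the diets in the response was not detectable. The call over both diets was lost, at limma adjusted p from 0.0502 to 0.0788, when any 1 of 10 libraries was left out: vehicle SP 1, 2, 3 or 4, vehicle HP 2, 3 or 4, G108 SP 2 or 3, or G108 HP 3. On SP the gene was called without G108 HP mouse 2, at limma adjusted p = 0.0455.

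A gene on the opposite strand, Gm30127, overlaps Ppp1r3g but shares 0 of its 2694 exon bases and did not exceed 0.199 TPM in any library.

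Ugp2 encodes UDP-glucose pyrophosphorylase, which makes the activated glucose that glycogen is built from (chr11:21321138-21371201, minus strand). The vehicle mice had 80.0, 84.0, 89.0 and 49.7 scaled TPM on SP and 58.5, 82.1, 79.5 and 96.9 on HP. The G108 mice had 88.5, 86.0, 98.4 and 97.0 on SP and 86.6, 73.5, 60.3 and 84.8 on HP. The 4 G108 mice on SP were the most alike and sat at the upper end, and they overlapped with the vehicle mice, whose lowest value came from mouse 4. For G108 against vehicle the log2 fold change came to 0.32 for SP (SE 0.19, limma adjusted p = 0.378) and -0.05 for HP (SE 0.19, limma adjusted p = 0.957). Without vehicle SP mouse 4 the SP value was 0.13. The antisense gene Gm12043 shares 78 of its 3069 exon bases, and whether the counting used strand is not given in the sources used here.

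Gys2 encodes the glycogen synthase of liver, which lengthens the chains (chr6:142422613-142473109, minus strand). It was at 75.2, 56.7, 52.4 and 61.4 scaled TPM with vehicle on SP and at 61.1, 51.6, 48.2 and 70.8 with vehicle on HP. With G108 it was at 72.8, 76.9, 83.2 and 67.2 on SP and at 60.4, 60.2, 51.2 and 58.6 on HP. The G108 mice on SP lay above all G108 mice on HP, a separation seen in either direction for 4.27% of the genes tested, and they overlapped with the vehicle mice on SP through vehicle mouse 1. The log2 fold change of HP against SP with G108 was -0.37 (SE 0.13, limma adjusted p = 0.828). G108 against vehicle gave 0.29 on SP (SE 0.13, limma adjusted p = 0.272) and 0.00443 on HP (SE 0.13, limma adjusted p = 0.993), so the level with G108 on HP was close to that of vehicle, with a 95% interval of the difference from -0.28 to 0.29.

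Gbe1 encodes the branching enzyme, which moves chain ends onto new branch points (chr16:70313949-70569716, plus strand). It spread widely within groups. Vehicle mice had 5.30, 9.91, 12.1 and 3.33 scaled TPM on SP and 4.85, 11.1, 10.2 and 10.4 on HP, and G108 mice had 6.39, 6.99, 10.1 and 9.46 on SP and 7.30, 6.00, 3.89 and 9.71 on HP. All groups overlapped, and the spread between mice reached 52.9% of a group mean with a counting error of at most 4.56%. G108 against vehicle gave log2 fold changes of 0.20 for SP (SE 0.34, limma adjusted p = 0.753) and -0.39 for HP (SE 0.34, limma adjusted p = 0.759).

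Pygl encodes the glycogen phosphorylase of liver, which splits glucose 1-phosphate from chain ends (chr12:70190811-70231488, minus strand). Its levels were 25.3, 38.9, 40.0 and 35.1 scaled TPM with vehicle on SP and 21.0, 35.9, 32.1 and 33.0 with vehicle on HP. With G108 they were 28.3, 28.7, 36.1 and 37.3 on SP and 25.8, 22.7, 18.7 and 32.1 on HP. The groups overlapped on both diets, with the lowest mean in G108 HP at 24.8 ± 5.66 (SD, n = 4) and the highest in vehicle SP at 34.8 ± 6.66 (SD, n = 4). G108 against vehicle gave -0.08 on SP (SE 0.20, limma adjusted p = 0.827) and -0.29 on HP (SE 0.20, limma adjusted p = 0.668) on the log2 scale. The match to TGACG before the RefSeq start of this gene is shown with that of Ppp1r3g, and its part in the level of the gene was not tested.

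Phka2 encodes the liver form of the alpha subunit of phosphorylase kinase, on which protein kinase A acts (chrX:160502166-160598878, plus strand). Vehicle mice had 4.63, 4.14, 3.66 and 5.54 scaled TPM on SP and 4.57, 3.13, 4.04 and 4.82 on HP. G108 mice had 4.16, 3.31, 2.64 and 2.57 on SP and 2.98, 3.81, 3.94 and 2.88 on HP. On SP the 3 lowest G108 mice were below every vehicle mouse, and mouse 1 was not. G108 against vehicle gave -0.40 on SP on the log2 scale (SE 0.15, limma adjusted p = 0.180), -0.22 on HP (SE 0.15, limma adjusted p = 0.665) and -0.31 over both diets (SE 0.10, limma adjusted p = 0.110).

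Of the 7 genes past the filter, Phka2 came nearest to a call and depended most on the settings. Over both diets it was called lower with array quality weights (limma adjusted p = 0.00727, 18.5% of all genes called), with a covariate for how steeply expression follows GC content in a library (limma adjusted p = 0.0438, 10.1% called), after rescaling without Mup and mitochondrial genes (limma adjusted p = 0.0380, 4.89% called) and without G108 SP mouse 1 (-0.36, limma adjusted p = 0.0451, 6.27% called). As deposited, its difference over both diets was 0.05 (limma adjusted p = 0.587), and that on SP was 0.21 (limma adjusted p = 0.0807), so its direction turned with the scaling. The antisense gene Gm15243 shares 115 of the 6068 exon bases of Phka2 and was itself at 2.37 to 5.81 TPM, and reads from the shared bases cannot be told apart without strand.

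Ppp1r3b encodes the targeting subunit known as GL, the main one of liver, which in the fasted state is held by active phosphorylase (chr8:35375739-35388139, plus strand). Vehicle mice had 15.9, 21.5, 25.2 and 46.3 scaled TPM on SP and 20.8, 22.8, 15.4 and 12.4 on HP. G108 mice had 17.3, 10.2, 14.6 and 22.6 on SP and 20.3, 21.0, 20.3 and 26.1 on HP. No pair of groups compared was separate. The difference on the log2 scale came to -0.66 for SP (SE 0.29, limma adjusted p = 0.246), 0.31 on HP (SE 0.29, limma adjusted p = 0.780) and 0.98 for the interaction (SE 0.40, limma adjusted p = 0.575). Without vehicle SP mouse 4, the highest of all 16, the SP difference was -0.38 and the interaction 0.69.

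Ppp1r3c encodes the targeting subunit PTG, which also binds glycogen synthase and phosphorylase (chr19:36731731-36736653, minus strand). It was at 6.83, 8.73, 8.35 and 6.86 scaled TPM with vehicle on SP and at 10.2, 8.12, 6.51 and 16.3 with vehicle on HP. With G108 it was at 11.2, 7.97, 7.23 and 9.88 on SP and at 6.73, 7.12, 6.64 and 7.38 on HP. The 4 G108 mice on HP were closely grouped, at the lower end of the vehicle mice of that diet. The difference on the log2 scale was 0.20 for SP (SE 0.20, limma adjusted p = 0.590), -0.43 for HP (SE 0.20, limma adjusted p = 0.439) and -0.63 for the interaction (SE 0.28, limma adjusted p = 0.575). The HP difference was -0.20 without vehicle HP mouse 4.

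Counted over the 7 genes past the filter, 0 were called by limma with G108 on SP, where 2.72% of all genes tested were called, 0 on HP, where 1.22% were, and 0 over both diets, where 5.81% were. At an unadjusted limma p under 0.05 there were 3 on SP (Gys2, Phka2 and Ppp1r3b), 1 on HP (Ppp1r3c) and 1 over both diets (Phka2), where 17.7%, 11.3% and 17.0% of all genes tested had such a p. The 7 genes had a median log2 fold change of 0.20 for SP and of -0.22 for HP. Over all genes tested the medians were -0.0082 and -0.0036, which the scaling holds near 0, so they do not show how far a median of 7 genes strays. Between the diets under G108, between the diets under vehicle and in the interaction, 0 of the 7 and 0% of all genes were called. There 1 of the 7 (Gys2), 0 and 2 (Ppp1r3b and Ppp1r3c) had an unadjusted limma p under 0.05, as had 5.40%, 3.94% and 7.22% of all genes.

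**Figure D2:**
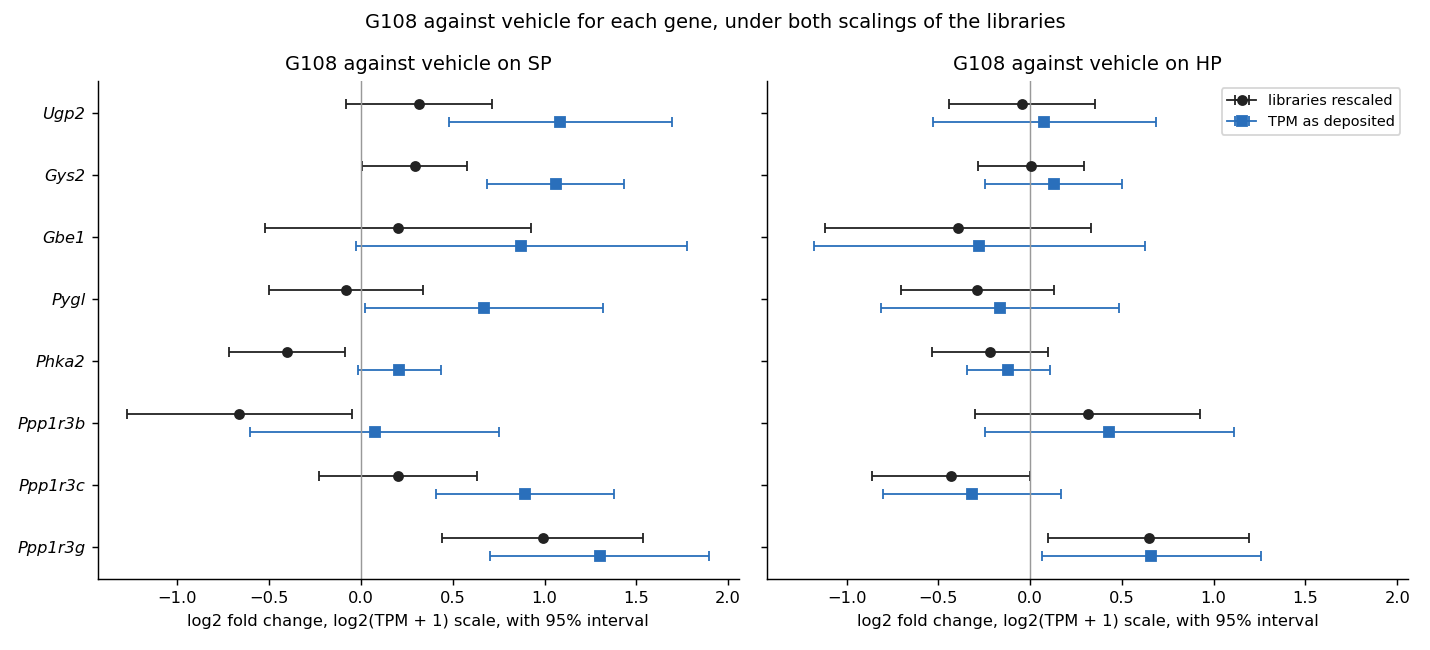
Log2 fold change of G108 against vehicle for each gene on SP (left) and HP (right), with 95% intervals from limma; black circles are rescaled libraries and blue squares TPM as deposited. On SP every square lies to the right of its circle, as for Gys2 at 1.06 against 0.29, while on HP the pairs lie close together.

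With TPM as deposited, 3 of the 7 genes rose with G108 on SP, in a setting in which 77.6% of all genes tested were called. Gys2 had a log2 fold change of 1.06 (limma adjusted p = 5.74e-04), Ugp2 one of 1.09 (limma adjusted p = 0.00440) and Ppp1r3c one of 0.89 (limma adjusted p = 0.00386). Over the 7 genes the differences ran from 0.08 for Ppp1r3b to 1.09 for Ugp2. The shift of the median gene in this setting, 0.60, is not taken off these values. Over both diets Gys2 (0.59) and Ugp2 (0.58) were called, beside 62.0% of all genes. On HP 0 of 7 were called by limma, beside 1.11% of all genes, and 0 had an unadjusted p under 0.05. The comparisons on SP and over both diets share the SP libraries.

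Ratios between 2 genes of the same library are free of the scaling, and they are given as a description. The log2 ratio of Gys2 to Pygl was 1.57, 0.55, 0.39 and 0.81 with vehicle on SP and 1.36, 1.42, 1.20 and 0.85 with G108 on SP. On HP it was 1.54, 0.52, 0.59 and 1.10 with vehicle and 1.23, 1.41, 1.46 and 0.87 with G108. On each diet the vehicle mice thus covered a wider range that took in all 4 G108 mice. The ratio of Ugp2 to Gys2 ran from -0.31 to 0.76 with vehicle on SP, from -0.06 to 0.72 with vehicle on HP, from 0.16 to 0.53 with G108 on SP and from 0.23 to 0.53 with G108 on HP, and all groups overlapped.

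Of the 28 pairs that the 8 genes form, 10 had ratios that did not overlap between vehicle and G108 on SP, 5 did so on HP, 4 between the diets under G108 and 0 between the diets under vehicle. The share of all gene pairs with such a gap is not given here, and the 28 pairs share genes, Ppp1r3g among them. These counts are therefore not read as a trait of the 8 genes. The pairs of targeting subunits described next were chosen by role, and nothing particular to them is read from a gap. The log2 ratio of Ppp1r3c to Ppp1r3b was -1.22, -1.30, -1.59 and -2.76 with vehicle on SP and -0.62, -0.36, -1.01 and -1.19 with G108 on SP. It was -1.02, -1.49, -1.24 and 0.40 with vehicle on HP and -1.59, -1.56, -1.61 and -1.82 with G108 on HP. The G108 mice on SP lay above all G108 mice on HP and above all vehicle mice on SP, the latter by a small gap, and on HP the G108 mice lay below the vehicle mice, also by a small gap. The ratio of Ppp1r3g to Ppp1r3b ran from -9.13 to -6.30 with vehicle on SP and from -5.07 to -2.47 with G108 on SP. On HP it ran from -8.28 to -5.96 with vehicle and from -6.05 to -3.26 with G108, so that those groups overlapped through 1 G108 mouse. Even with G108 on SP, where the median ratio was the highest of the 4 groups, that median stood at 0.0854 TPM of Ppp1r3g to 1 TPM of Ppp1r3b.

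**Figure D3:**
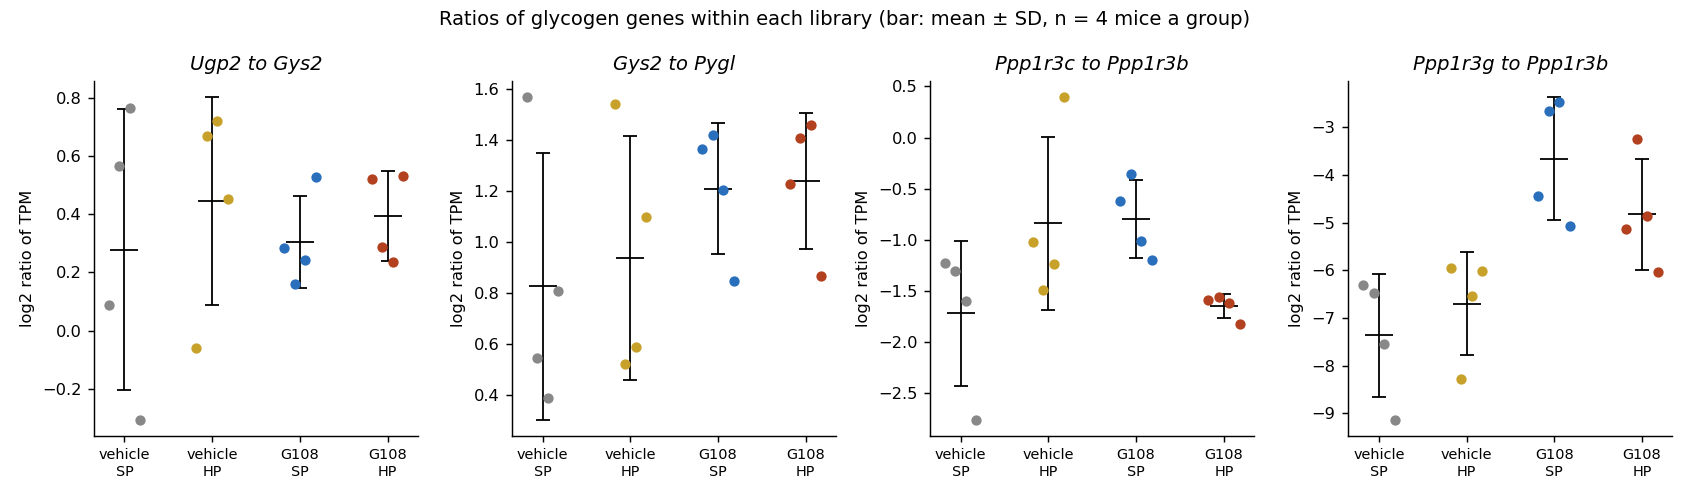
Log2 ratio of the TPM of 2 genes within each library, for 4 pairs of glycogen genes in the 4 groups; points are mice, and bars are the mean and SD of 4 mice. The Ppp1r3g to Ppp1r3b panel shows the G108 mice on SP from -5.07 to -2.47 above the vehicle mice, which reach -5.96 at most.

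Within groups, several of the genes varied together. Taken as deviations from the group means over the 16 libraries, Gbe1 had a Pearson r of 0.89 with Ugp2, 0.80 with Pygl and -0.76 with Phka2, a description over libraries that share their scaling. The deviations also followed the library: r with the log2 scaling factor was 0.87 for Gbe1, 0.81 for Pygl, 0.63 for Ugp2 and -0.86 for Phka2, and between -0.27 and 0.08 for the other 4 genes. The scaling factor is the divisor of these values. Against the share of TPM from Mup and mitochondrial genes, r was -0.75 for Gbe1, -0.72 for Pygl, -0.51 for Ugp2 and 0.84 for Phka2. For the other 4 genes it lay between -0.11 and 0.18. With the slope of expression on GC content of each library, r was -0.81 for Ugp2 and -0.67 for Gbe1. Vehicle SP mouse 4, whose GC slope was the highest of the 16 libraries, had the lowest Ugp2, Gbe1 and Ppp1r3g and the highest Phka2 and Ppp1r3b of its group. The part of these library measures in the differences between groups was not tested beyond the fit with the GC slope as a covariate, in which Ugp2 was called higher with G108 on SP (0.45, limma adjusted p = 0.0314), beside 14.6% of all genes.

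**Figure D4:**
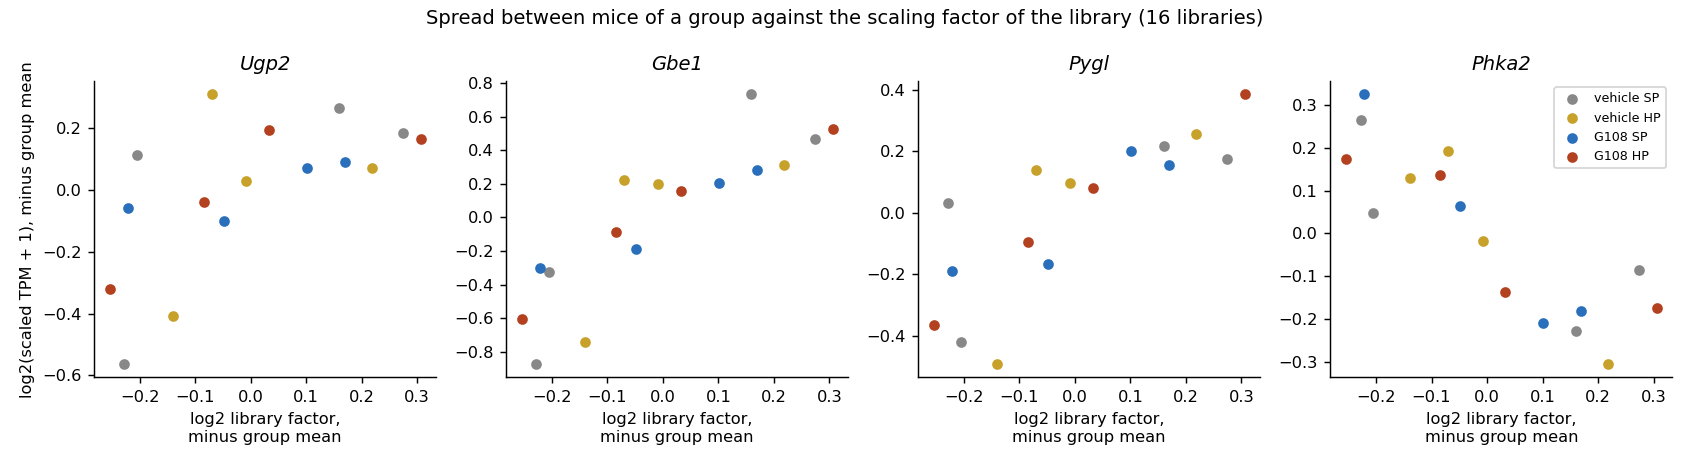
Deviation of log2(scaled TPM + 1) from the group mean against the deviation of the log2 scaling factor of the library, for 4 genes over 16 libraries coloured by group. Ugp2, Gbe1 and Pygl rise from left to right (r from 0.63 to 0.87) and Phka2 falls (r = -0.86).

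Of 29 further genes of glycogen metabolism reported here, which were listed by name, 19 passed the filter. On SP 1 of these was called, beside 2.72% of all genes tested. It was G6pc, which encodes the catalytic subunit of glucose 6-phosphatase and so lets the liver release free glucose. It was at 40.3, 65.7, 42.2 and 42.2 scaled TPM with vehicle on SP and at 85.2, 65.3, 129 and 142 with G108 on SP. On HP it was at 73.2, 80.5, 55.6 and 56.0 with vehicle and at 84.9, 124, 142 and 149 with G108. The groups overlapped narrowly on SP, through vehicle mouse 2 and G108 mouse 2, and did not overlap on HP, where 2.50% of all genes with a value were separate in this direction. The log2 fold change was 1.09 (SE 0.25, limma adjusted p = 0.0296) for SP and 0.89 (SE 0.25, limma adjusted p = 0.123) for HP. Over both diets the gene rose by 0.99 (limma adjusted p = 0.00334), beside 5.81% of all genes tested called. On SP it was called in 11 of 16 fits that left out a library, and not, at limma adjusted p from 0.0624 to 0.118, without vehicle SP 1, 3 or 4 or G108 SP 3 or 4. Over both diets it was called in 16 of 16 such fits (limma adjusted p from 0.00175 to 0.00985), and on HP in 0.

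By role, the enzymes Gyg and Pgm1 had log2 fold changes of -0.01 and 0.35 on SP and of -0.05 and -0.18 on HP. The 5 phosphorylase kinase and calmodulin genes ranged from -0.21 to 0.29 on SP and from -0.03 to 0.15 on HP, the 4 other phosphatase 1 genes from 0.02 to 0.29 and from -0.24 to 0.01, the synthase kinases Gsk3a and Gsk3b from -0.08 to 0.15 and from 0.0003 to 0.23, and the 2 genes of glycogen quality and lysosomal breakdown from 0.25 to 0.26 and from -0.17 to -0.03. Beside G6pc, the genes of glucose exchange included the glucose 6-phosphate transporter Slc37a4, at -0.21 on SP and -0.28 on HP, the glucose transporter Slc2a2, at -0.28 and -0.42, and Gckr, at -0.09 and 0.26. Over both diets Slc2a2 was at -0.35 (SE 0.14, limma adjusted p = 0.199); both transporters are named after their values were seen. None of these was called on either diet. The 19 had a median log2 fold change of 0.07 for SP and -0.03 for HP. Limma called 0 of them on HP, where G6pc, Gsk3b and Ppp1cc (3 of 19) had an unadjusted p under 0.05, beside 11.3% of all genes tested. As deposited, 16 of the 19 were called higher on SP, from 0.38 for Gyg to 1.86 for G6pc, beside the 77.6% of all genes called in that setting. The others called higher were Pgm1, Calm2, Calm3, Phkb, Phkg2, Ppp1ca, Ppp1cb, Ppp1cc, Ppp1r3e, Gsk3a, Gsk3b, Gaa, Stbd1 and Gckr.

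The genes below the filter included some forms typical of other tissues. The muscle synthase Gys1 had a mean TPM of 0.593, the muscle and brain phosphorylases Pygm and Pygb 0.233 and 0.393, the muscle targeting subunit Ppp1r3a 0.00558, and Phkg1, Pgm2, Ppp1r3d, Ppp1r3f, Epm2a and Nhlrc1 between 0.0484 and 0.860. Ppp1r3g, at 0.137 ± 0.0726 deposited TPM with vehicle on SP (SD, n = 4), lay in that range without treatment and reached 2.03 ± 1.46 (SD, n = 4) with G108 on SP. In scaled TPM these 2 means were 0.165 and 1.43. With G108 on HP the deposited mean was 0.937 ± 0.764 (SD, n = 4).

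**Figure D5:**
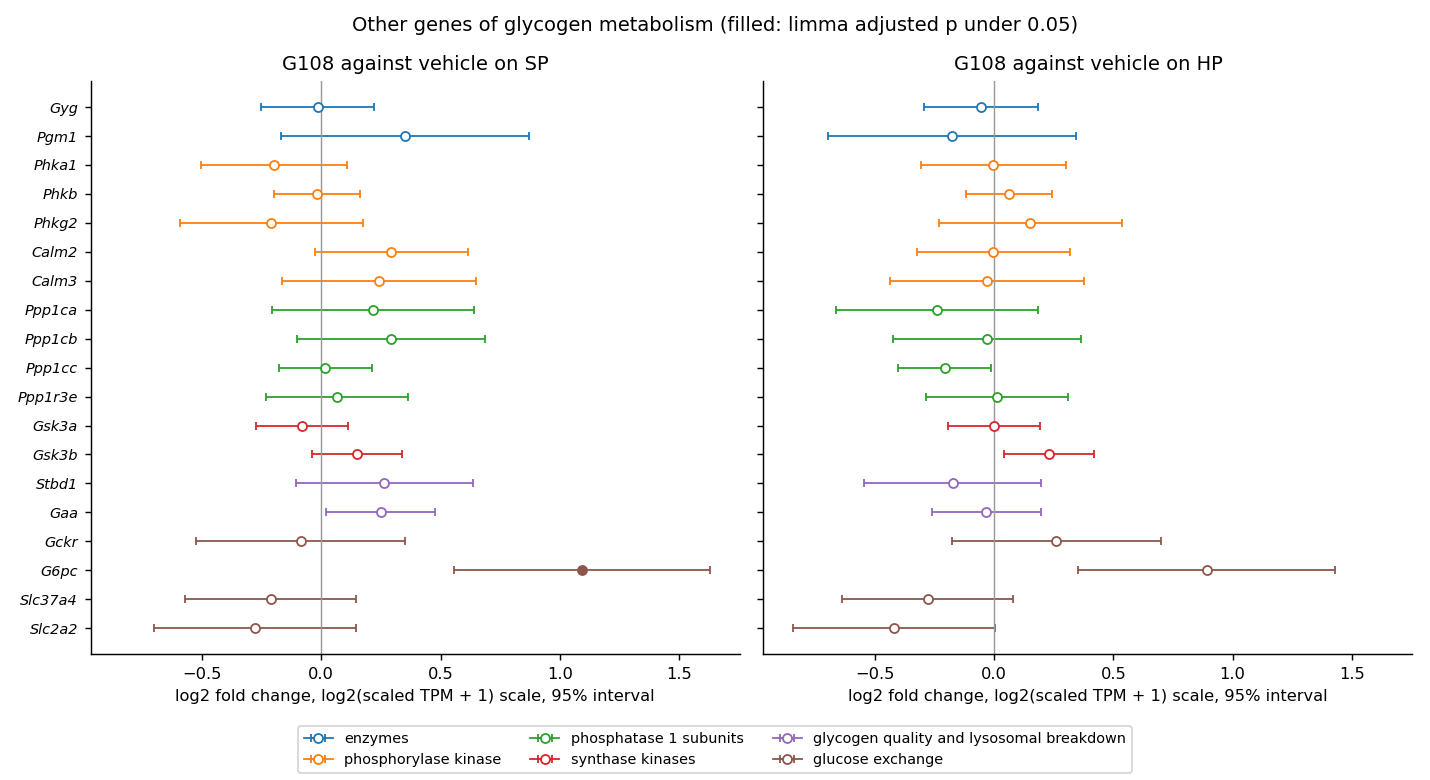
Log2 fold change of G108 against vehicle with 95% intervals for 19 other genes of glycogen metabolism on SP (left) and HP (right), coloured by role; filled points had a limma adjusted p under 0.05. G6pc at 1.09 is the filled point on SP, and no point is filled on HP.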

How the data were processed

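Liver RNA-seq values of 16 mice, 1 library each, were used as the authors deposited them. Per the study's methods and the submitters' processing notes, reads were checked with FastQC 0.11.8, aligned to GRCm38 with HISAT2 2.0.5 and counted per gene with featureCounts, and the deposited values are TPM computed by the authors from counts and exon lengths. The authors tested counts with DESeq2 1.36.0; counts were not used here. Reads were recovered from the TPM steps (of 138163 values under 20 reads, 98.8% came within 0.02 of a whole number).

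The 11839 genes whose mean TPM reached 1 were compared on log2(scaled TPM + 1), pseudocount 1, after median-of-ratios scaling (11591 genes), in limma 3.58.1 (R 4.3.3, trend) with 1 mean per group over all 16 libraries. P-values were adjusted by Benjamini-Hochberg over every gene in the fit, and a gene was called when its adjusted p lay under 0.05. Ppp1r3g was tested in the fit of all 32076 genes with a value, and by two-sided exact permutation in Python 3.11.15. The code was tested on simulated data with known changes. Symbols, coordinates and exon lengths came from GENCODE M21, promoters from RefSeq (GRCm38.p6).

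The members, the list of other pathway genes, the markers and the tests were chosen with earlier results of these data known. Genes named are the 8 members and listed genes that were called, on the main scale or as deposited, or lay below the filter; some listed genes are not reported here, and counts over the list leave them out. Labels number the mice, which are separate animals; the numbers do not pair the groups. Alternatives were TPM as deposited, TPM rescaled without Mup and mitochondrial genes, a pseudocount of 0.1, no filter or a mean TPM of at least 5, fits restricted to the relevant groups, a block for mouse number, array quality weights and each library left out; voom on recovered reads, the GC slope and a mean TPM of at least 0.5 were added after seeing the data. Exact permutation of 4 against 4 mice cannot go below p = 0.0286. Counting error is that of reads without molecular identifiers.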

Additional observations from a re-analysis of the deposited data

Results flagged for a closer look

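In 3 of 32 sets of 4 mice (8 genes in 4 groups), 1 mouse lay farther from the other 3 than a gap test at the 95% level allows, and chance gives about 1 such set in 20. For Gbe1 with vehicle on HP the lowest mouse was at 4.85 scaled TPM. For Ppp1r3b with G108 on HP the highest mouse was at 26.1. For Ppp1r3g with G108 on HP the highest mouse was at 2.20, with the other 3 at 0.394 to 0.695, all of them above the vehicle mice.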

How the results depend on the processing

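Of the differences of the 8 genes under the alternatives, 1152 kept their direction and side of the threshold, 18 gained and 11 lost a call, and 39 turned direction; except where a value below shows it, the cause was not tested. Of the 7 genes past the filter, with 0 called by limma in each comparison, 3 were called on SP as deposited, 2 with array quality weights and 2 with the GC slope, and over both diets 2 as deposited, 1 after rescaling without Mup and mitochondrial genes, 1 without the filter (Ppp1r3g, then the 8th gene tested), 2 with weights, 1 with the GC slope and from 0 to 1 with each library left out. Over all genes, 322 were called on SP, against 9185 as deposited, 103 with the relevant groups alone, 1821 with weights, 1729 with the GC slope and from 158 to 471 with each library left out. The 145 on HP became 43 without the filter, 77 at a mean TPM of at least 5, 52 with the relevant groups alone, 795 with weights and from 17 to 210 with each library left out. The 688 over both diets became 7335 as deposited, 396 at a mean TPM of at least 5, 2188 with weights, 1190 with the GC slope and from 459 to 871 with each library left out. Between the diets, where limma called 0 genes (639 under G108 and 466 under vehicle at an unadjusted p under 0.05, and 855 for the interaction), 297 were called under G108 with weights, 1 under vehicle and 1 for the interaction without the filter, and from 0 to 2 under vehicle with each library left out.

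With mouse number as a replicate block, 213 genes were called on SP, 35 on HP and 1 between the diets under vehicle. For Ppp1r3g, G108 against vehicle over both diets was still called (limma adjusted p = 0.0467), and the block changed no call of the 7 genes past the filter. Same-numbered mice did not deviate together (8 of 24 pairs over 0.1, r from -0.57 to 0.53, 4 of 16 libraries closest to their own number), so the numbers pair nothing.

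Of the 39 turns of direction, 14 came as deposited, 2 with the rescaling, 4 with weights, 3 with the GC slope and 16 with a library left out. As deposited, the log2 difference was 0.67 (Pygl), 0.21 (Phka2) and 0.076 (Ppp1r3b) on SP, 0.08 (Ugp2) on HP, and 0.30 (Gbe1), 0.25 (Pygl), 0.045 (Phka2), 0.25 (Ppp1r3b) and 0.29 (Ppp1r3c) over both diets. Between the diets it was 0.11 (Gys2), 0.0039 (Pygl) and 0.064 (Phka2) under vehicle, -0.26 (Phka2) under G108 and -0.33 (Phka2) for the interaction. Rescaling without Mup and mitochondrial genes gave -0.073 for Gys2 on HP and -0.025 for Phka2 between the diets under G108. Weights gave -0.024 for Gbe1 on SP, 0.030 for Ugp2 on HP, and -0.035 for Ugp2 and -0.032 for Ppp1r3g under vehicle. The GC slope gave 0.11 for Gbe1 over both diets, 0.080 for Ugp2 on HP and -0.038 for Ugp2 under vehicle. Leaving out libraries moved Gys2 from -0.077 to 0.10 on HP and from -0.19 to 0.014 under vehicle, Gbe1 from -0.088 to 0.45 on SP and from -0.24 to 0.026 over both diets, Ugp2 from -0.18 to 0.061 on HP and from -0.11 to 0.21 under vehicle, Phka2 from -0.17 to 0.0047 under vehicle and Ppp1r3g from -0.027 to 0.078 under vehicle. With array quality weights Gys2 (limma adjusted p = 0.0436 on SP and 0.0348 over both diets) and Phka2 (0.0221 on SP) were called, beside 15.4% of all genes on SP and 18.5% over both diets, as was Phka2 on SP with the GC slope (0.0498, beside 14.6%). The call of Ppp1r3g over both diets held in 14 of 25 settings; besides the libraries left out, it was lost with the GC slope (limma adjusted p = 0.0526).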
